A study of Mus musculus with 18 samples.

Results

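Burst-forming unit-erythroid cells (BFU-E), the early progenitors committed to the red cell lineage, were profiled by ATAC-seq in mice, and 1590 intervals were listed as open chromatin in steady-state marrow BFU-E only. They were chosen from the deposited peak lists: entries of the marrow list that repeat the same coordinates were merged, and a peak was kept when no base of it overlapped an interval of the list for stress BFU-E from spleen. The 1590 peaks were 4.52% of the 35142 marrow peaks (95% Wilson interval 4.31 to 4.75%, counting error only). The other 33552 marrow peaks overlapped a stress peak and are called shared. The stress list held 61661 peaks, of which 27740 (45.0%) overlapped no marrow peak and are called stress-only. The stress list also covered more sequence, 41.8 Mb against 29.2 Mb, so a marrow peak met a longer list than a stress peak did.

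All mice were B6SJL. Steady-state BFU-E were sorted from the bone marrow of untreated mice, and stress BFU-E from the spleen 8 days after lethal irradiation and a transplant of unfractionated marrow. RNA was sequenced from both populations and from multipotent progenitors (MPP) and colony-forming unit-erythroid cells (CFU-E), a later erythroid stage, of the same kind of recovering spleen. Each population had 3 libraries for each assay in which it was measured, 18 in all. Cells bearing mature lineage antigens were removed first, and the rest were sorted on surface antigens that included c-Kit, CD9, CD71 and CD150. Organ, irradiation with transplant, and part of the staining changed together between marrow and stress cells, so their effects cannot be told apart. The age of the mice, how many were pooled for a library, and whether host cells were gated out of the spleen are not given in the sources used here. The peaks were deposited as 1 list for each population, so no peak's place in one list and not in the other could be checked between replicates.

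ATAC-seq uses a transposase that inserts adapters where DNA is not wrapped in nucleosomes, and its peaks mark promoters and distal elements such as enhancers. Distal elements differ more between related cell types than promoters do. In erythroid progenitors many of them are bound by GATA factors together with the E-box protein TAL1, and KLF1 acts at CACCC sequences. RUNX1, PU.1 and C/EBP proteins act in earlier and myeloid progenitors, and MYB keeps erythroid progenitors dividing.

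The sequences below show the kinds of interval that made up the 1590. Each holds the central base of a peak and the 100 bases to each side, on the plus strand of GRCm38.p6 (the mm10 build that the lists use), from RefSeq's assembly. Capitals mark matches, on either strand, to the letters used for each motif. These were AGATAA for GATA factors, TGTGGTT for RUNX, TTGCNNAA for C/EBP, TGANTCA for AP-1, and GCTGANTCA for NF-E2, which always contains an AP-1 match. AAANNGAAA was used for IRF, CAACTG for MYB and ACANNNTGT for the glucocorticoid receptor, and CTCF was searched by its longer motif. Matches to the commoner CCNCNCCC (KLF), CAGNTG (E-box) and TGACAG (MEIS) were left in lower case, except that a CAACTG read on the other strand is CAGTTG and so is always an E-box match. A match is a string of letters and was not measured as a bound site.

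The first set is the peak at the 1 gene of this group that passed edgeR's RNA test, followed by the best-scored peaks of genes that had 3 or 4 marrow-only peaks and whose windows held no annotated exon.
Tifab, chr13:56169940-56170140: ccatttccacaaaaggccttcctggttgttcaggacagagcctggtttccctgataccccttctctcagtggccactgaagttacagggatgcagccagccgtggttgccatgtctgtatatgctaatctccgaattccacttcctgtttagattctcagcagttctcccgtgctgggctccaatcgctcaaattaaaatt
Hivep3, chr4:119849093-119849293: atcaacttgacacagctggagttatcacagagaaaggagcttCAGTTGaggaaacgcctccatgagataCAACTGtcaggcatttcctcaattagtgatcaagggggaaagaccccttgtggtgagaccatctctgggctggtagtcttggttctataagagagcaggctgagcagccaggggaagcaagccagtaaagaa
Csmd3, chr15:48571822-48572022: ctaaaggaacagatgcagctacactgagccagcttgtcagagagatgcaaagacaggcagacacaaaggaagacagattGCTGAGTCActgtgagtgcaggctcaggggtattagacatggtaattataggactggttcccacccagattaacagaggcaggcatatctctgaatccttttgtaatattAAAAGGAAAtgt
Acvr2a, chr2:48767842-48768042: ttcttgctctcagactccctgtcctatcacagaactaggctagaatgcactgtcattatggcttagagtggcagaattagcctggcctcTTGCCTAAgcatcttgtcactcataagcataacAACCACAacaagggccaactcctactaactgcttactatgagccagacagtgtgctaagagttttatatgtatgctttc
Jun, chr4:95234218-95234418: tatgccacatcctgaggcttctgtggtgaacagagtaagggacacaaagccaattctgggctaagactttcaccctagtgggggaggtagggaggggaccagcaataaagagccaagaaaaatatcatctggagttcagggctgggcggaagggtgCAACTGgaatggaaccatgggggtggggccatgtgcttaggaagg
The Tifab window held none of the motifs drawn in capitals. In the Hivep3 window 2 MYB matches stood close together, and the whole window was repeat-masked, with its centre in an LTR element of the MTA_Mm family. The Csmd3 window held an NF-E2 match, with AP-1 inside it, and an IRF match. The Acvr2a window held 1 C/EBP and 1 RUNX match, and the Jun window 1 MYB match.

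The second set holds peaks with the highest score or the best-scored match to a motif, among those over 500 bp from any stress peak.
Gm4736, chr6:132463657-132463857: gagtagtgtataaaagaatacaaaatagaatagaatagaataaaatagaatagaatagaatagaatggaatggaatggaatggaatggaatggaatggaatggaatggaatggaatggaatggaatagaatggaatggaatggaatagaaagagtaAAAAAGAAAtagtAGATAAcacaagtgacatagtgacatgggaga
Gm17644, chr1:12644709-12644909: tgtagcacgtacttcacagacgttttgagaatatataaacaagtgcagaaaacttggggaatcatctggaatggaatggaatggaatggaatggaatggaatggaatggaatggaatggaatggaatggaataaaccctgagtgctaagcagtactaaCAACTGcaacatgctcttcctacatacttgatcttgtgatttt
Kif16b, chr2:142813122-142813322: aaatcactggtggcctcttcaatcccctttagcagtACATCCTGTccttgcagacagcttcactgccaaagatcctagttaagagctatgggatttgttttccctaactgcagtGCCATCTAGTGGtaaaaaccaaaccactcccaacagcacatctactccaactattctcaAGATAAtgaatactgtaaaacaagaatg
The first 2 lay between genes and were centred in a simple repeat of the 5 bases GAATG, and each carries the name of the nearest start site. The Gm4736 window was the best-scored one with a GATA match and also held an IRF match. The Gm17644 window held a MYB match. The Kif16b window held a GATA, a glucocorticoid receptor and a CTCF match, and was the best-scored one with CTCF.

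The marrow-only peaks were low-scored and narrow. The score is the authors' value for each peak, with a ceiling of 1000 and no unit stated, and it is used here only to rank peaks within the marrow list. Its median was 523 over the 1590 peaks (quartiles 460 and 618) and 830 over the shared marrow peaks. The median width was 426 bp (quartiles 293 and 579, range 150 to 1733) against 792 bp for shared and 448 bp for stress-only peaks. A rule of no overlap favours narrow intervals in both population-specific sets. A single entry in the list stood for 1116 of the marrow-only peaks (70.2%), against 35.3% of shared and 61.7% of stress-only peaks. They covered 0.737 Mb, which is 2.53% of the sequence covered by the marrow list.

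The share of marrow peaks missing from the stress list fell at each step of score. Of the 4281 marrow peaks scored from 415 to 499, 652 (15.2%) were marrow-only. Between 500 and 599 the share was 10.4% (475 peaks), and between 600 and 699 it was 6.30% (264 peaks). It was 2.67% from 700 to 799 (109 peaks), 1.05% from 800 to 899 (40 peaks) and 0.624% from 900 to 999 (22 peaks). Of the 10690 peaks at the ceiling of 1000, 28 (0.262%) were marrow-only, all of them single entries 150 to 363 bp wide. Only 84 of the 1590 (5.28%) reached 811, the median score of the marrow list.

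Most marrow-only peaks still had a stress peak in the neighbourhood. The distance to the nearest one had a median of 6384 bp and ran from 1 bp to 952193 bp. For 212 peaks (13.3%) it was 500 bp or less, and for 719 (45.2%) it was between 1001 and 10000 bp. It exceeded 100000 bp for 85. The 212 near peaks were narrower (median 246 bp against 444.5 bp) and higher in score (median 588.5 against 517) than the 1378 others. For 166 of the 212 (78.3%) the neighbouring stress peak overlapped another marrow peak, so the interval lay beside a region that was open in both lists. Of the 28 peaks at the ceiling 20 were near peaks in this sense, and so were 44 of the 84 that reached the list's median score. A 1 bp rule decides such cases. The peak nearest to the limit on the inside, in intron 1 of Fbxo36 at chr1:84840434-84840655 (score 533), lay 1 bp from a stress peak. The one nearest on the outside, in an intron of Enpp3 at chr10:24789502-24789651 (score 534), overlapped a stress peak by 1 bp. Peaks over 500 bp from any stress peak are therefore counted separately where it matters.

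**Figure D1:**
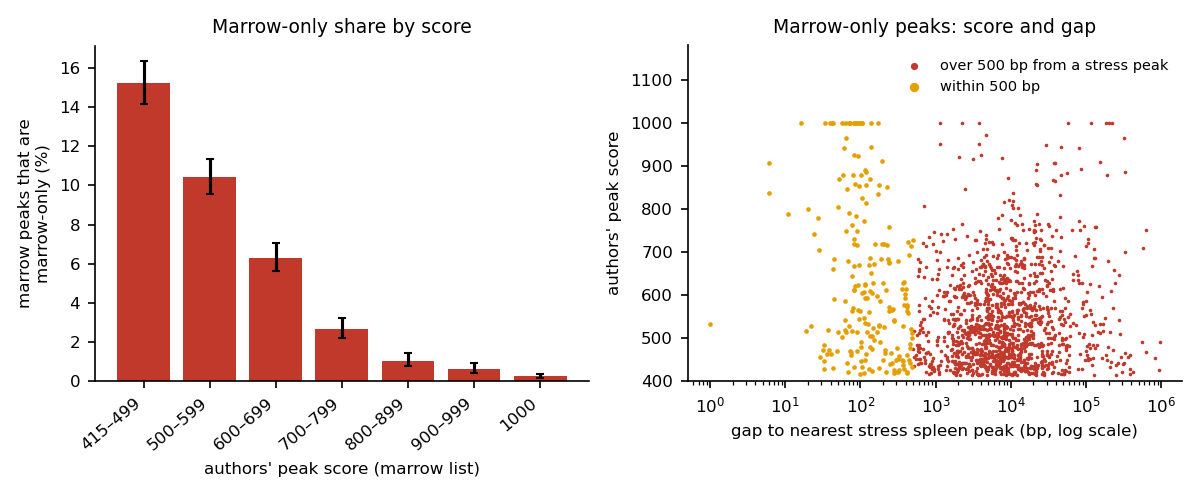
Left, percent of marrow peaks that were marrow-only in each bin of the authors' score, with Wilson intervals as error bars. Right, the score of each of the 1590 marrow-only peaks against its distance to the nearest stress peak in bp on a log axis. The share falls from 15.2% in the lowest bin to 0.262% at the ceiling, where most points lie within 500 bp of a stress peak.

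The 1590 peaks lay away from promoters. Of them 1461 (91.9%, interval 90.4 to 93.1%) were more than 1 kb from the nearest annotated start site, and these are called distal. The share was 65.5% for shared and 91.4% for stress-only peaks, so in this respect marrow-only peaks were placed like stress-only peaks. Peaks more than 50 kb from a start site made up 31.4% of the marrow-only set (interval 29.1 to 33.7%), 17.8% of the shared and 24.6% of the stress-only set. By the deposited annotation 730 (45.9%) lay in introns, 699 (44.0%) between genes, 76 (4.78%) at promoters and 39 (2.45%) in exons. Promoters held 21.2% of shared peaks. The GC content of the distal windows had a median of 48.3% for marrow-only, 50.2% for shared and 49.3% for stress-only peaks.

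LTR, SINE and LINE elements were at the centre of marrow-only peaks more often than of shared peaks, and LTR and SINE elements about as often as of stress-only peaks. These shares cover all peaks, and 34.5% of shared peaks lay within 1 kb of a start site against 8.11% of marrow-only peaks. In distal windows alone the median repeat-masked share was 10.4% for marrow-only, 8.46% for shared and 10.4% for stress-only peaks. LTR elements, the remains of endogenous retroviruses, held the centre of 130 (8.18%, interval 6.93 to 9.63%), against 4.27% of shared and 8.26% of stress-only peaks. SINE elements held 93 (5.85%, interval 4.8 to 7.1%), against 2.18% and 5.54%. For LINE elements the figure was 77 (4.84%, interval 3.89 to 6.01%), against 1.96% of shared and 3.22% of stress-only peaks. The families met most often were the SINE B3, at 23 peaks, and the LTR families ORR1E, at 11, and MTD, at 10.

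A small group of high-scored peaks lay in simple repeats with a unit of 5 bases. There were 11 of them (0.692% of the 1590), with a median score of 945 and a median width of 228 bp, and all were over 500 bp from a stress peak. Such repeats were at the centre of 34 shared peaks (0.101%) and 37 stress-only peaks (0.133%). GAATG or its complement was the unit in 5 marrow-only, 2 shared and 0 stress-only peaks. The Gm4736 and Gm17644 sequences above are examples. How uniquely reads map to such repeats was not tested. A copy of mitochondrial DNA, which can also draw ATAC reads, matched 0 marrow-only, 22 shared and 3 stress-only peaks.

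**Figure D2:**
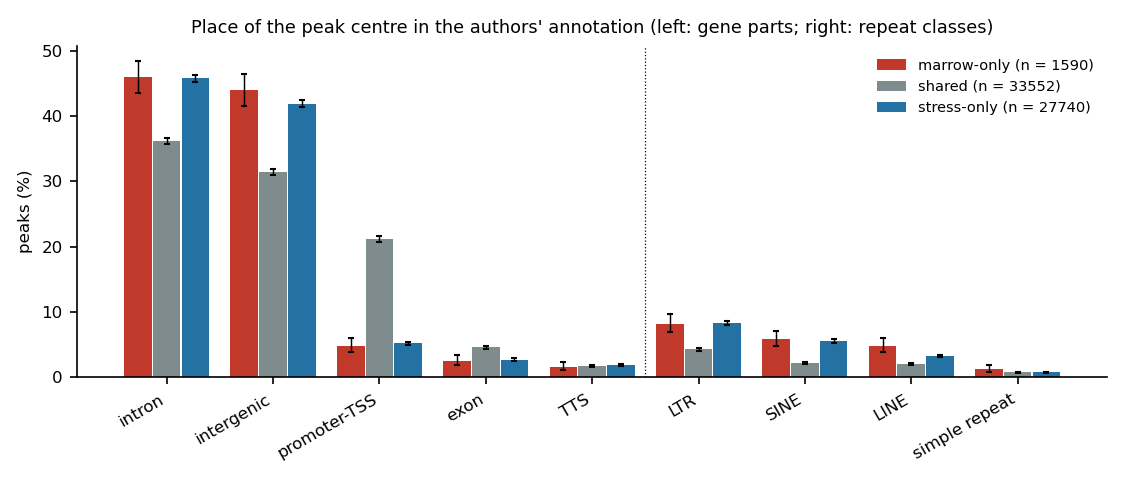
Percent of marrow-only (n = 1590), shared (n = 33552) and stress-only (n = 27740) peaks in each annotation class and repeat class, with 95% Wilson intervals as error bars. Marrow-only and stress-only bars stand close together at promoters and LTR and SINE elements, and shared peaks differ from both.

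In windows of 100 bases to each side of the peak centre, GATA and KLF letters were less frequent at marrow-only than at shared distal peaks. GATA letters were present in 9.99% of the 1461 marrow-only windows (interval 8.6 to 11.6%), in 13.03% of 21989 shared and in 14.7% of 25347 stress-only windows. KLF letters were in 19.6%, 25.2% and 23.0% of the same sets. E-box letters were in 41.9% (interval 39.38 to 44.44%), 44.42% and 45.7%, so the shared value lay just inside the marrow-only interval. GATA and E-box letters occurred together in 56 marrow-only windows (3.83%, interval 2.96 to 4.94%), against 5.44% of shared and 6.28% of stress-only windows. Since marrow-only peaks are low-scored, the 7054 shared distal peaks with a score no higher than the marrow-only upper quartile are a closer comparison, and they held GATA letters in 12.9%, KLF letters in 23.7% and E-box letters in 45.3%. The marrow-only share was the lowest of the 4 for each of these letters. With 50 bases to each side GATA letters were in 5.82% of marrow-only windows (interval 4.73 to 7.14%), 6.64% of shared and 6.22% of shared low-scored windows, so at that width both shared values lay inside the interval. KLF letters were then in 10.6%, 14.2% and 13.04%. E-box letters were in 23.3% of marrow-only (interval 21.2 to 25.5%) and 24.98% of shared windows, again inside the interval. Intervals cover counting error over the regions of 1 list for each population, and no test between conditions was possible.

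CTCF, the protein that anchors chromatin loops, had a match in 3.1% of marrow-only windows, 5.0% of shared, 6.4% of shared low-scored and 7.0% of stress-only windows. ETS letters (CCGGAAG) were in 1.7%, 2.8%, 2.2% and 2.3% of the same 4 sets, and NF-Y letters (CCAATCA) in 1.6%, 2.4%, 2.3% and 2.7%. Both of these are typical of promoters. IRF letters were in 7.8%, 9.3%, 9.7% and 9.0%.

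Other motifs had shares close to, or slightly above, those of shared peaks. MYB letters were in 12.4% of the windows (interval 10.8 to 14.2%), against 10.6% of shared, 10.9% of shared low-scored and 11% of stress-only windows. The shared low-scored and stress-only values lay inside the interval. C/EBP letters were in 9.4% (interval 7.99 to 10.98%), against 8.02%, 7.8% and 7.9%, so the shared value lay just inside the interval. Over whole peaks, which are wider in the shared set, both orders turned, with MYB letters in 24.4% of marrow-only and 31.4% of shared peaks and C/EBP letters in 19.99% and 24.8%. RUNX letters were in 11.5% of both marrow-only and shared windows, and PU.1 letters (GAGGAAGT) in 5.7% and 5.8%. AP-1 letters were in 8.9% and 9.1%, and MEIS letters in 18.5% and 17.4%. The letters of the glucocorticoid receptor, which acts in stress erythropoiesis, were in 8.0% of marrow-only and 7.3% of shared windows. STAT letters (TTCNNNGAA) were in 6.5% and 6.0%. The rarer NF-E2 letters were in 2.8% and 2.5%, EBF letters (CCCNNGGGA) in 3.1% and 3.7%, and MEF2 letters (CTAAAAATA) in 0.6% of both. No match says only that the letters are not in the window. PU.1 and C/EBP letters stood together in 5 marrow-only windows (0.34%), against 0.38% of shared ones.

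**Figure D3:**
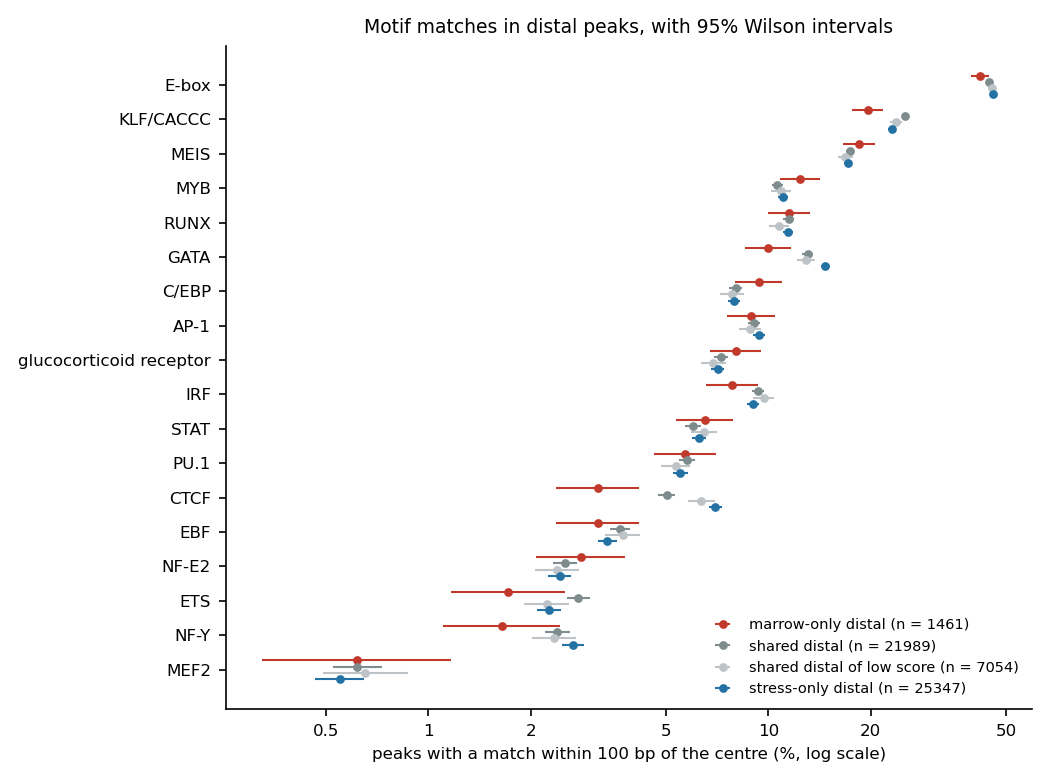
Percent of windows (100 bases to each side of the centre) of distal peaks that hold each motif, for marrow-only (n = 1461), shared (n = 21989), shared low-scored (n = 7054) and stress-only (n = 25347) peaks, with 95% Wilson intervals. The marrow-only points for GATA, KLF and CTCF lie below the other 3 sets, as do those for E-box, ETS, NF-Y, IRF and EBF. Those for MYB and C/EBP lie above, as do MEIS, STAT, NF-E2, the glucocorticoid receptor and, barely, RUNX. The marrow-only intervals for MYB and C/EBP include values of other sets.

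By the nearest start site the 1590 peaks were assigned to 1384 genes, and 63 peaks had no gene name. Most genes, 1257, had 1 such peak, 112 had 2, 14 had 3 and 1 had 4. They were 8.99% of the 15391 genes with any marrow peak. A marrow-only peak rarely meant that the gene had open chromatin in marrow alone. Of the 1384 genes 1182 (85.4%) also had a shared peak and 1069 (77.2%) also had a stress-only peak, and 750 had more stress-only than marrow-only peaks. Only 86 had no other peak in either list. The nearest gene need not be the gene an element acts on.

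The genes with the most marrow-only peaks included several that regulate transcription. Hivep3, a large zinc finger protein that binds kappa B-like sequences, had 4, beside 11 shared and 8 stress-only peaks. These 4 lay 7.1 kb before the start site and 26.9, 34.5 and 162.3 kb after it, the last of them 507 bp from a stress peak. Runx1, needed for blood stem cells to form, had 3, with 13 shared and 16 stress-only peaks. All 3 Runx1 peaks were annotated to exons, with GC contents of 61.2 to 72.1%, and their scores were 753, 719 and 553. The one scored 719 lay 206 bp from a stress peak. Jun, a subunit of AP-1, had 3, with 11 shared and 8 stress-only peaks, at 23.6, 144.5 and 182.1 kb before its start site. The one at 144.5 kb lay 96 bp from a stress peak. Acvr2a, an activin receptor, had 3 with 3 shared and 2 stress-only peaks, and Klf12 had 3 with 8 and 3. Zfp521, a zinc finger protein of early progenitors, had 3 with 5 and 6, and a marrow-only one lay 263 bp from a stress peak. Csmd3, a neural gene, had 3 with 2 and 1. Slco3a1, an organic anion transporter, had 3 with 8 and 15, and 2 of its 3 were 67 bp apart.

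Among lists of genes by function, erythroid regulators and stem cell genes held marrow-only peaks and the erythroid receptors and sort antigens held none. In the list of 20 erythroid transcription regulators 6 genes had 8 marrow-only peaks, which were 7.92% of the list's marrow peaks, against 4.52% over all marrow peaks. Bcl11a, the repressor of fetal globin genes, had 2, at 16.1 kb before and 119.8 kb after its start site, with 11 shared and 10 stress-only peaks. Myb had 2 at 28.0 and 60.4 kb before its start site, with 3 shared and 3 stress-only peaks. Gata2, the GATA factor of early progenitors, had 1 of high score (908) at chr6:88190123-88190436, 8.4 kb before its start site. That Gata2 peak lay only 6 bp from a stress peak and 80 bp from another marrow peak. A shared Gata2 peak 8.9 kb before the start site had the same score of 908. Whether the score belongs to the marrow-only interval alone cannot be told. Zfpm1, the cofactor of GATA1 also known as FOG1, had 1, as did Sox6 and Foxo3. Among 24 stem and multipotent progenitor genes 7 had 11 marrow-only peaks (11.5% of the list's marrow peaks). They were Runx1 with 3, Ikzf2 and Eya1 with 2 each, and Mecom, Flt3, Etv6 and Satb1 with 1 each. Both Eya1 peaks lay far after its start site, at 144.3 and 166.1 kb, and Eya1 had 5 shared and 0 stress-only peaks.

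The remaining lists held between 0 and 5 marrow-only peaks each. Junb, the other immediate early gene with any, had 2 inside its single exon, 4 shared and 0 stress-only peaks. The one of higher score (923) was 94 bp from a stress peak, and a shared Junb peak had the same score. Of the megakaryocyte list Gp9 and Tubb1 had 1 each, and of the haem and iron list Steap3, the ferrireductase of erythroid iron uptake, had 1. Xk of the red cell membrane, Fkbp5 of the glucocorticoid list, Selplg, Icam2 and Itgal of the homing receptors, and Oasl2, Rsad2 and Ifit1 of the interferon list had 1 each. Of other lineages Mitf, a mast cell regulator, had 2, beside 18 shared peaks over the mast cell list (10% of its marrow peaks). The Mitf peak of higher score (669) was 97 bp from a stress peak. Tcf7 and Zap70 had 1 each, beside 8 shared peaks over the T and NK list (20% of its marrow peaks, the highest share of the 15 lists and one that rests on 2 peaks). The list of erythroid receptors and sort antigens had 0 marrow-only peaks, with 44 shared and 27 stress-only. Myeloid genes had 0, with 43 shared and 44 stress-only, macrophage genes 0 with 14 and 18, and B cell genes 0 with 5 and 10. The lists differ in size and in the length of their genes, so these counts are descriptions.

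**Figure D4:**
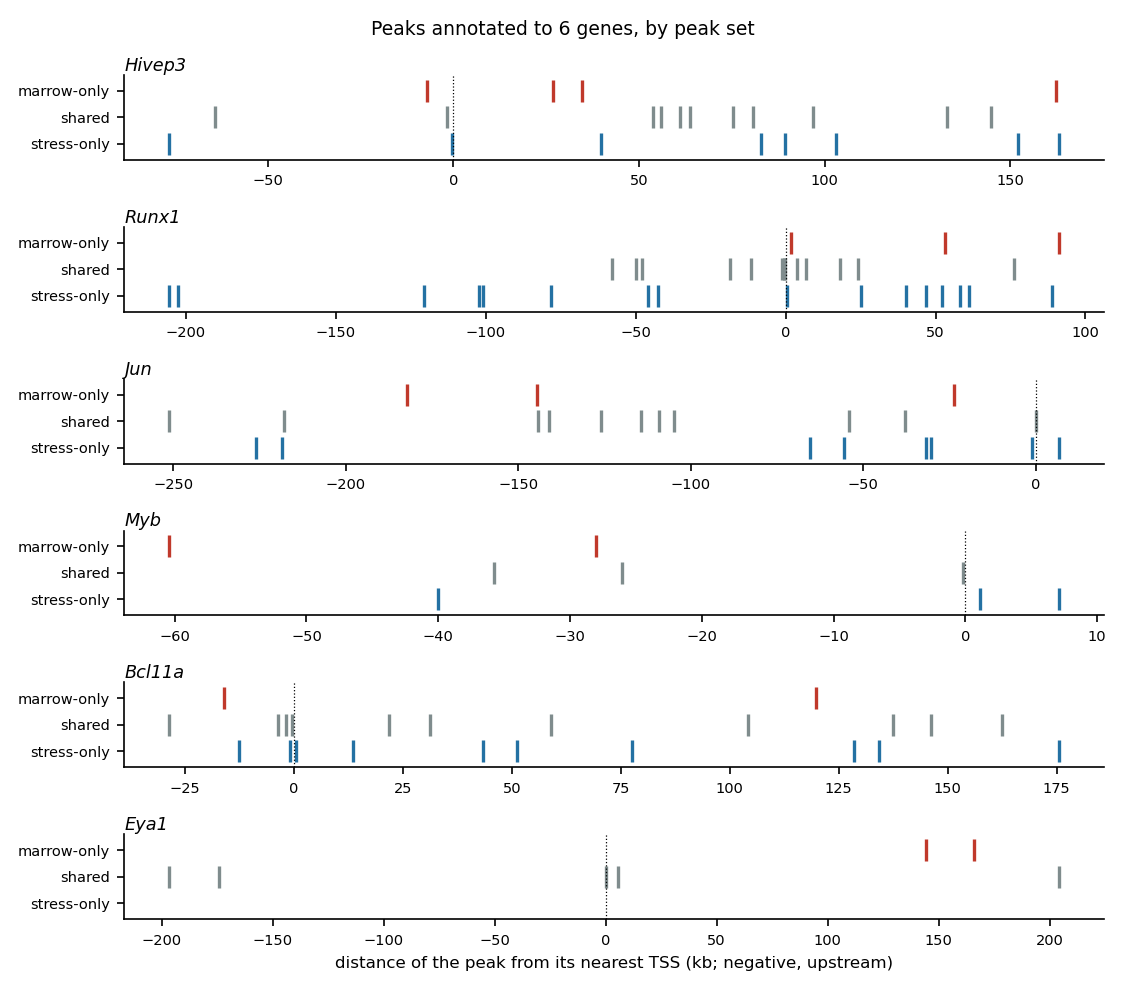
Peaks assigned to Hivep3, Runx1, Jun, Myb, Bcl11a and Eya1, by distance from the start site in kb (positive values lie after it) and by list: marrow-only, shared and stress-only. At Myb 1 marrow-only peak (60.4 kb before the start site) and at Runx1 1 (91.3 kb after it) lie beyond the other peaks on that side, and Eya1 has no stress-only peak.

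RNA from the same 2 BFU-E populations showed few differences that passed edgeR's test and more by DESeq2. Counts per library were 6758871 to 9463498 in marrow and 10555143 to 12926718 in stress cells. The 3 marrow libraries resembled each other less (correlation of log CPM across genes 0.60 to 0.73) than the 3 stress libraries did (0.945 to 0.953). Marrow BFU-E had Kit at 28.4 to 34.2 RPKM and Gata1 at 2.91 to 41.9. Of the lineage genes Cd8a and Cd3e were at 0 in every library and Cd4 was at 0 to 3 RPKM in marrow. The myeloid genes Csf1r and Adgre1 were at 8.99 to 18.2 and 0.758 to 2.35 RPKM in marrow. In stress BFU-E they were at 1.23 to 1.4 and 0 to 0.253. Tfrc, the gene of CD71, was at 3.43 to 6.29 RPKM in marrow and 11.7 to 15.2 in stress BFU-E. Epor was at 0.767 to 2.69 RPKM in marrow and 5.24 to 8.62 in stress BFU-E, and Mpo, a myeloid enzyme, at 110 to 217 and 105 to 130. Of the 1384 genes 732 were in the count table and 1381 in the RPKM table, where 704 (50.98%) had a mean of at least 1 RPKM in marrow, against 43.0% of all genes. In all 6 libraries 342 were listed at 0.

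Of the 732 tested genes 1 was lower in stress BFU-E and 0 were higher, by edgeR's quasi-likelihood test with Benjamini-Hochberg adjustment over 10702 genes. Over all genes 0.103% were called lower, 0.00934% higher and 0.112% either way, so 1 of 732 is close to the background. At an unadjusted p under 0.05 the 732 held 62 lower (8.47%) and 22 higher (3.01%), against 6.01% and 3.83% of all genes. Genes with a shared distal peak stood at 7.48% and 3.73%. In 93 of the 732 (12.7%) all 3 stress libraries were below all 3 marrow libraries and in 70 (9.56%) above, against 9.08% and 12.8% of all genes. The median log2 fold change was -0.08 for the 732 and 0.01 for all genes. DESeq2 called 39 of the 732 lower (5.33%) and 16 higher (2.19%), against 3.93% and 2.47% of all genes.

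The gene that passed was Tifab (chr13:56173703-56178885, minus strand), which restrains the TRAF6 pathway of innate immune signalling. Its CPM was 85.1, 164 and 209 in the marrow libraries and 17.3, 13.5 and 11.8 in the stress libraries. The groups did not overlap. The log2 fold change was -3.43 (SE 0.40, edgeR adjusted p = 0.032), and the edgeR adjusted p was 0.087 without marrow replicate 2 and 0.10, 0.27 and 0.23 without stress replicates 1, 2 and 3. Its marrow-only peak, chr13:56169886-56170194, had a score of 457, near the floor of the list. It lay 8.8 kb after the start site and beyond the gene's end, in an LTR33A element and 2545 bp from the nearest stress peak. Tifab also had 3 shared and 1 stress-only peaks.

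Other genes had large differences that did not pass edgeR's test. Ahnak, a very large scaffold protein, had 656, 955 and 767 CPM in marrow and 108, 34 and 32.5 in stress libraries (log2 fold change -3.76, SE 0.50, edgeR adjusted p = 0.055). It is one of the few genes with a marrow-only peak at the promoter, 61 bp from the start site and 113 bp from a stress peak. Lsp1, an actin-binding protein of leukocytes, had 137, 263 and 423 CPM in marrow and 36.4, 10.3 and 6.01 in stress libraries (log2 fold change -3.96, edgeR adjusted p = 0.16). Rassf4 had 89.6, 148 and 124 against 32.2, 19.3 and 26.6 CPM. These 3 genes were picked among those whose marrow and stress libraries did not overlap, so that trait adds no support. DESeq2 called all 3 (adjusted p 6.43e-08 for Ahnak, 0.000322 for Lsp1 and 5e-10 for Rassf4). Selplg, the P-selectin ligand used in homing, had 137, 232 and 337 against 76.3, 37.2 and 71.8 CPM, and Flt3, the receptor of lymphoid-primed progenitors, 55, 19 and 12.9 against 11.7, 0 and 6.97. For Selplg the edgeR adjusted p was 0.19 and the DESeq2 adjusted p 2e-05, and for Flt3 the edgeR adjusted p was 0.70.

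Some genes to which a marrow-only peak was assigned stood higher in the stress libraries. The peaks lay 101.9 kb (Podxl) and 30.2 kb (Scin) before the start site. At Psat1 the distance was 109.3 kb after it, and at Eya1 144.3 and 166.1 kb after it. The Scin peak was 128 bp from a stress peak, and a shared Scin peak had the same score of 560. Podxl, a sialomucin of progenitors and endothelium, had 0.217, 17 and 15.9 CPM in marrow and 129, 128 and 126 in stress libraries (log2 fold change 3.54, SE 1.04, edgeR adjusted p = 0.33). It had 12 stress-only peaks. Scin, an actin-severing protein, had 22.8, 0 and 2.75 against 58, 70.5 and 77.5 CPM (edgeR adjusted p = 0.53). Psat1, an enzyme of serine synthesis, had 64.8, 66.3 and 23.6 against 165, 169 and 135 CPM (adjusted p = 0.25 by edgeR and 0.000853 by DESeq2). Eya1 had 4.01, 4.38 and 21.6 against 23.5, 32.9 and 22.7 CPM (edgeR adjusted p = 0.67). All of its population-specific peaks were marrow-only. These genes, too, were picked among those whose libraries did not overlap, so that trait adds no support, and none passed edgeR's test. Stress values for Podxl, Scin and Psat1 lay close together, and the marrow values were spread.

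For the regulators with marrow-only peaks no RNA difference passed edgeR's test. Runx1 was at 427, 326 and 332 CPM in marrow and 357, 308 and 358 in stress BFU-E. Bcl11a was at 211, 266 and 219 against 233, 261 and 250, and Gata2 at 727, 684 and 425 against 501, 550 and 510. The ranges of these genes overlapped. Jun was at 1769, 1818 and 2361 against 1305, 1590 and 1134 CPM (log2 fold change -0.56, edgeR adjusted p = 0.35), and Myb at 1143, 952 and 881 against 729, 697 and 828 (log2 fold change -0.40, edgeR adjusted p = 0.42). For both, all stress libraries were below all marrow libraries, as in 9.08% of all genes. Neither passed edgeR's test, while DESeq2 gave adjusted p = 0.021 for Jun and 0.0348 for Myb. Hivep3, with the most marrow-only peaks, was low in both, at 29.6, 20.3 and 3.48 against 5.3, 5.54 and 13.4 CPM.

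Myeloid, macrophage, B cell, and T and NK markers were mostly at lower values in stress BFU-E too, and few passed the test. Markers of 2 other lists were split. Megakaryocyte genes were lower in 11 and higher in 9, with 1 called lower by edgeR. Mast cell and basophil genes were lower in 5 and higher in 5, none by the test. Of 21 tested myeloid genes 20 were at lower values and 2 fell by the test, where 5272 of all 10702 genes were at lower values and 0.103% fell. The myeloid list's summed CPM was 1384 to 3180 in marrow and 843 to 1011 in stress libraries, and Cebpe and Gfi1 were at 0 in all marrow libraries. All 6 tested macrophage genes were at lower values, none by the test, with a sum of 75.2 to 154 CPM against 24.1 to 40.8, and Marco was at 0 in both populations. The 3 tested B cell genes were at lower values, none by the test, with a sum of 177 to 208 CPM against 30.2 to 148. The 3 tested T and NK genes were also at lower values, none by the test, with a median log2 fold change of -4.17, and the list's sum was 44.9 to 99.2 CPM against 53.4 to 69.3. Of 14 T and NK genes 8 were at 0 in all marrow libraries and 8 in all stress libraries, with Cd3e and Cd8a at 0 in both. Of the B cell list 7 were at 0 in marrow and 5 in stress libraries. Their part in the lower values of Tifab, Lsp1 or Ahnak was not tested. In bulk RNA, fewer cells of a type and less RNA per cell cannot be told apart.

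**Figure D5:**
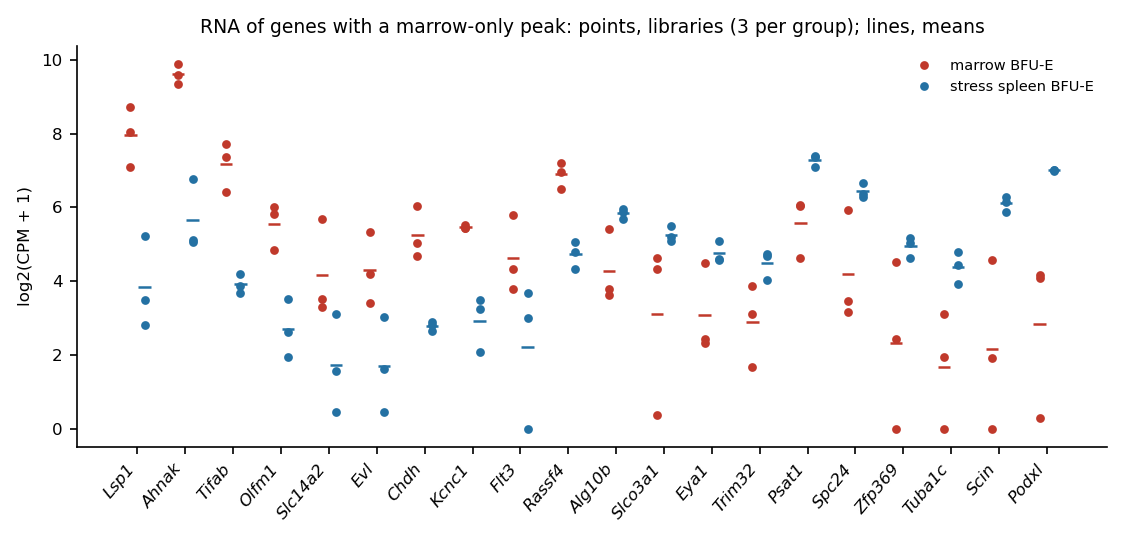
RNA of the 20 genes with a marrow-only peak and the largest differences with no overlap between groups, as log2(CPM + 1), with 3 marrow and 3 stress spleen BFU-E libraries per gene and lines at the group means. Tifab, at 85.1 to 209 CPM in marrow and 11.8 to 17.3 in stress libraries, was the one that passed edgeR's test.

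The RNA of the recovering spleen places the same genes along erythroid differentiation. These libraries include the 3 stress BFU-E libraries of the previous comparison. From MPP to CFU-E, 693 of the 1384 genes were tested, and 183 (26.4%) fell and 90 (12.99%) rose at an edgeR adjusted p under 0.05. Over all 10166 tested genes 16% fell, 12.7% rose and 28.8% did either. Genes with a shared distal peak stood at 22.9% and 13.1%, and genes with a stress-only peak at 21.2% and 12.99%. For the falls both lay between. The median log2 change was -0.13 for the 693 and -0.00 for all genes. With 2 or more marrow-only peaks the share that fell was 38.4% (28 of 73 genes), and the median log2 change -0.42. Such genes could also have many shared and stress-only peaks, and no set matched for the number of peaks was compared. Among the 126 tested genes that had no stress-only peak the share that fell was 15.1% (19 genes), and 12.7% (16 genes) rose. From MPP to BFU-E 26 fell and 28 rose, against backgrounds of 2.11% and 2.03% (4.13% either way), and from BFU-E to CFU-E 155 fell and 72 rose, against 11.9% and 9.17% (21.1% either way).

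Genes of early and multipotent progenitors made up several of the falls. Of the 21 tested genes on the whole stem and multipotent progenitor list 19 fell, with or without a marrow-only peak, against 16% of all genes. Runx1 was at 328, 234 and 285 CPM in MPP and 129, 119 and 124 in CFU-E (log2 fold change -1.19, edgeR adjusted p = 2e-07). Flt3 fell from 14.4, 4.15 and 20 CPM to 0.542, 0.339 and 1.12, and Hivep3 from 10.6, 10.5 and 17.8 to 1.39, 0 and 0.203 (edgeR adjusted p = 0.0045 and 0.00043). Eya1 fell by 1.94 on the log2 scale, Zfp521 by 1.42, Slco3a1 by 1.32, Ikzf2 by 0.74 and Gata2 by 0.50, all at an edgeR adjusted p of 0.0085 or less. GATA2 is known to give way to GATA1 as red cell progenitors mature. Tifab fell by 4.61 (edgeR adjusted p = 0.0015) and Lsp1 by 4.63 (edgeR adjusted p = 1.4e-06). Podxl, higher in stress BFU-E though not by the test, fell by 1.80 (edgeR adjusted p = 1.6e-07), from 231, 197 and 256 CPM to 75.9, 78.8 and 41.8.

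Others rose towards CFU-E. Myb was at 785, 823 and 849 CPM in MPP and 1800, 1905 and 2107 in CFU-E (log2 fold change 1.24, edgeR adjusted p = 2e-10). Scin had 7.29, 0.691 and 3.87 against 119, 169 and 180 CPM (log2 fold change 5.14, edgeR adjusted p = 7.2e-10), the largest rise among the genes named here. Steap3 rose by 2.27 on the log2 scale, Itgal by 1.17, Junb by 0.73 and Bcl11a by 0.40, all at an edgeR adjusted p of 0.0063 or less.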

How the data were processed

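Per the file headers, the authors annotated 1 deposited ATAC peak list for each population with HOMER on mm10, and each peak carries a deposited score. The file names mention IDR, the reproducibility filter, and the peak caller and threshold are not given in the sources used here. Raw read counts per gene over exons and RPKM values were deposited by the authors, made with HOMER per the file headers. The count table of the 2 BFU-E populations had been restricted by the authors to genes with a mean of 50 tags. The submitters' processing notes name Bowtie2 2.3.4.2, STAR 2.6.0b-1, DESeq2 and HOMER 4.8. Whether reads were counted by strand is not given in the sources used here. A further RPKM table of 12 libraries was not used, and 1 marrow column of the 6-library RPKM table could be matched to its group but not to a replicate.

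Repeated entries of 1 interval were merged (76147 marrow and 117426 stress entries), and overlaps of 1 bp or more were found in Python 3.11.15 with pandas 2.3.3. Motifs were searched on both strands of windows of 100 bases to each side of the peak centre, and matches to mitochondrial DNA used blastn 2.17.0. Wilson intervals used scipy 1.17.1. Genes were tested with edgeR 4.0.16 in R 4.3.3 (TMM, quasi-likelihood, Benjamini-Hochberg over all genes tested, threshold 0.05). The spleen stages used 9 libraries and genes with a mean count of at least 50. DESeq2 1.42.0 with a local dispersion trend was an alternative, and the edgeR steps were tested on simulated data. The sources used here do not say whether libraries came from separate mice, so p-values measure only the spread between these libraries, which may be technical.

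The members and lists were chosen with earlier results of these data known. Named genes were those called between the BFU-E populations, the 10 largest differences in each direction without overlap between libraries and with at least 20 CPM, the 10 genes with the most marrow-only peaks, and up to 3 for each of 15 lists. The text gives those it turns on. Stage values were given for named genes. Some sequences are not reported here.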

Additional observations from a re-analysis of the deposited data

How the results depend on the processing

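The 1590 peaks became 1378 (3.92% of marrow peaks) when a stress peak within 500 bp counted as shared, and 2108 (6.00%) when at least 50% of the marrow peak had to be covered. Among marrow peaks at or above the list's median score they were 84 (0.477%). The share of distal peaks, 91.9%, was 75% for those 84, 94.2% under the 500 bp rule and 86.6% with distal set at 3 kb. Over whole peaks the MYB difference from shared peaks, 1.77 percentage points in the fixed window, turned to -7.01. Between the BFU-E populations edgeR called 1 gene, DESeq2 55 with a local and 41 with a mean dispersion trend (its default trend converged or not with the number of computing threads), and edgeR 0 among genes with no stress-only peak or with a peak within 1 kb of the start site. Leaving out 1 library gave 0 to 2. From MPP to CFU-E 273 genes were called, 35 of 126 tested genes with no stress-only peak (27.8%, against 39.4% of 693) and 17 of 45 with a peak within 1 kb. The median log2 change there, -0.13, was -0.16 to -0.11 without 1 library and 0.031 for genes with no stress-only peak. Same-numbered libraries deviated together with correlations of -0.03 to -0.02 in BFU-E, against -0.01 to 0.04 for differently numbered ones, so the numbers showed no pairing there. Between MPP and CFU-E the correlations were 0.02 to 0.10, against -0.09 to 0.03 for differently numbered ones. Whether the spleen stages were paired was not settled. With a replicate block 0 BFU-E genes were called (Tifab adjusted p = 0.11 by edgeR), the BFU-E median moved from -0.08 to 0.05 while the median of all genes moved from 0.01 to 0.19, the stage median was -0.11 and 281 stage genes were called. The number of libraries, 3 for each population, limits the RNA tests. The peak lists allow no check between replicates. The alternatives on genes with a peak over 500 bp from a stress peak, on motifs in such peaks, on the mean dispersion and on low-scored shared peaks were chosen after seeing the data.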

Other observations

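The 1590 peaks were spread over all chromosomes, with 69 (4.34%) on chromosome 18, against 3.07% of shared and 3.15% of stress-only peaks, and 1 on Y. They seldom stood together: 37 pairs lay within 10 kb of each other and 18 within 1 kb. Of 9 motifs counted together, 443 windows (27.9%) held none, 611 held 1, 347 held 2, and 3 held 5.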
